A study of Mus musculus with 11 samples.

Results

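Blood coagulation and fibrinolysis were followed through 9 genes that cells of the vessel wall are known to use: von Willebrand factor (Vwf), coagulation factors V and VIII (F5, F8), tissue factor (F3), thrombomodulin (Thbd), the endothelial protein C receptor (Procr), tissue factor pathway inhibitor (Tfpi), tissue plasminogen activator (Plat) and the urokinase receptor (Plaur). They were picked by gene symbol, and each symbol matched 1 of the 32287 features of the expression matrices. The data were single-cell RNA profiles of cerebrovascular cells from 6 R182C-TgN3 mice, a model of the small vessel disease CADASIL, and 5 WT-TgN3 control mice, of 6 or 9 months, of both sexes and untreated, with 1 library per mouse. Both genotypes carried a human NOTCH3 transgene, with the R182C change in the CADASIL mice and wild-type in the controls. The labels give the genotypes as different transgenic lines (Tg350 and Tg100), so the change and the line cannot be told apart. The labels also give 4 batches, numbered here by date. Batch 1 held 2 mice of each genotype at 9 months, batch 2 held only CADASIL mouse 3 at 9 months, batch 3 held 2 mice of each genotype at 6 months, and batch 4 held 1 of each at 6 months.

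Clotting in vessels starts when blood meets tissue factor, a membrane receptor that normally sits outside the endothelium and sets off a chain of proteases ending in thrombin. Factors V and VIII are cofactors that speed this chain, and von Willebrand factor, stored in endothelial granules, carries factor VIII and tethers platelets. Resting endothelium holds the chain back: thrombomodulin and the endothelial protein C receptor turn thrombin towards activating protein C, which destroys the cofactors, and Tfpi blocks the tissue factor complex. Tissue plasminogen activator then starts the breakdown of fibrin, and the urokinase receptor holds the other plasminogen activator at the cell surface.

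After quality filters and removal of 3279 likely doublets, 58346 cells were kept, at 2898 to 9056 cells per mouse and a median of 3496 to 7637 unique molecular identifiers (UMIs, each 1 counted RNA molecule) per cell in each mouse. Cells were clustered without the 9 genes and named from marker lists: 3610 arterial, 15844 capillary and 1539 venous endothelial cells, 4259 and 5992 cells between arterial and capillary and between capillary and venous identity, 1624 fenestrated endothelial cells, 2130 smooth muscle cells, 707 pericytes and 13706 microglia. The values below are UMIs summed over a mouse's cells of a type, as counts per 1000000 UMIs of that type (CPM). The 7 markers of each of the endothelial and smooth muscle lists and the 8 of the pericyte list were all detected in their own types. The summed endothelial markers were 16876 to 19677 CPM in capillary cells, 1891 to 6381 CPM in pericytes and 52.5 to 1026 CPM in smooth muscle cells, a mean of 19.8% of the capillary level in pericytes and 1.68% in smooth muscle cells. Human NOTCH3 was counted at 199.6 to 362 CPM in smooth muscle cells of CADASIL mice and 15.7 to 70.7 CPM in those of control mice. Across the libraries 966 barcodes occurred more than once, and they made up 1.58% to 2.16% of the cells of the endothelial, smooth muscle, pericyte and microglial groups.

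The genes lie apart from each other in the mouse genome (mm10, GENCODE coordinates). Vwf spans chr6:125546774-125686679 on the plus strand, Plaur chr7:24462484-24475968 (plus), Plat chr8:22757727-22782844 (plus), F3 chr3:121723537-121735048 (plus), and F8 chrX:75172715-75382615 (minus). Chromosome 2 holds Tfpi (84432855-84476775, minus), Thbd (148404466-148408188, minus) and Procr (155751117-155755471, plus). F5 (chr1:164151838-164220277, plus) starts 1812 bases after the end of Selp, the platelet-binding adhesion receptor P-selectin, on the same strand.

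Promoter windows, the 250 bases before the RefSeq transcript start (build GRCm38.p6), were listed for 6 of the 9 genes. They were searched for TGANTCA on both strands, the letters bound by AP-1, the dimer of Fos and Jun proteins. The letters occurred in the windows of F3, Procr and Plaur, against 6.75% of all 32851 windows. The windows of Plaur (chr7:24462233-24462482, plus strand) and F3 (chr3:121723287-121723536, plus strand) are shown because both genes hold the letters while their levels in brain endothelium were far apart, as given below. Capitals mark the matches, which start 69 bases before the transcript start in Plaur and 146 and 135 bases before it in F3.
Plaur: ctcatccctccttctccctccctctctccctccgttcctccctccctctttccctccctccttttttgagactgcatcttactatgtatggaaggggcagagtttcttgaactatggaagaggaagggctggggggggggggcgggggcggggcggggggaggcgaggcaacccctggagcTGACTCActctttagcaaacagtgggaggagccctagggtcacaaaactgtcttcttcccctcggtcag
F3: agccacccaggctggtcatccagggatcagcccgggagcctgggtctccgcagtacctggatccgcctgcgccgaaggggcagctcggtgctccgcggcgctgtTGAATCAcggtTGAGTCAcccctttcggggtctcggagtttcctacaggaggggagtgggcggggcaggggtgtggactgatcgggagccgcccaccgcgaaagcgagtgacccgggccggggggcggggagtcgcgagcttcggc
A match is a description of the letters in the window and was not tested for use by the cell.

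To ask where along the vessels each gene was read, its mean CPM over the 11 mice was ordered over 7 cell types: arterial, capillary, venous and fenestrated endothelium, smooth muscle, pericytes and microglia. Microglia are not part of the vessel wall and were taken as a comparison for RNA that did not come from the cell itself. Their summed endothelial markers were at 0.73% of the capillary level, and Vwf, F5, Thbd and Plat at 0.54% to 5.25%. But F3 was at 1480% of it, F8 at 105%, Tfpi at 90.6%, Plaur at 77.4% and Procr at 22.0%. For F3, F8, Tfpi, Plaur and Procr microglia were thus not used as a background level, and the source of that RNA was not tested. Neighbours in each order were compared within mice by a 2-sided exact permutation test of the signs of the log2(CPM + 1) differences, adjusted by Benjamini-Hochberg over the 54 neighbour pairs. The smallest p that 11 mice allow is 0.000977, which became 0.0033 after adjustment, and 24 of the 54 pairs passed 0.05.

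**Figure D1:**
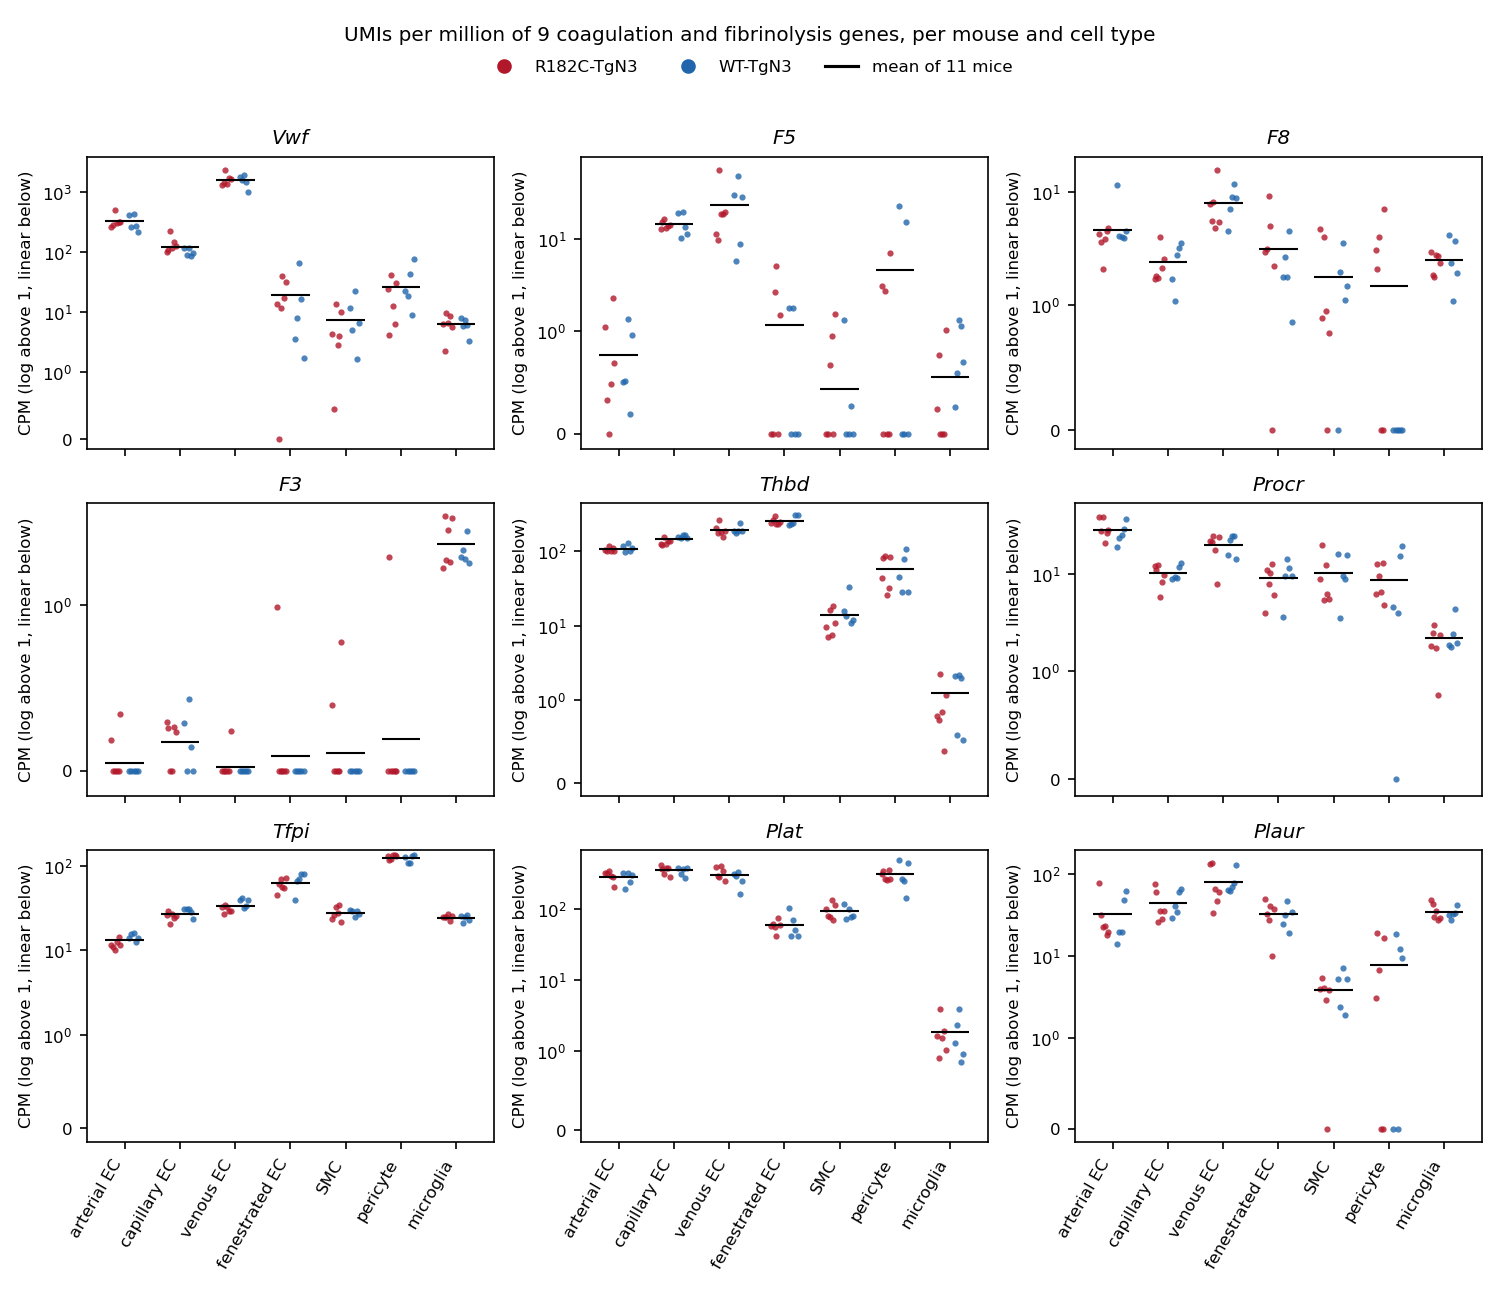
Each panel plots 1 gene: CPM on the vertical axis (logarithmic above 1, linear below) against 7 cell types, with a point for each mouse (red R182C-TgN3, blue WT-TgN3) and a bar at the mean of 11 mice. Vwf was highest in venous cells (1589 CPM), Thbd in fenestrated cells (255 CPM), Procr in arterial cells (28.2 CPM) and Tfpi in pericytes (125 CPM), while F3 stayed under 1 CPM in every vascular mean.

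Vwf, the platelet tether, was highest in venous cells, followed by cells between capillary and venous identity and then by arterial cells. In venous cells it was at 1000 CPM in the lowest mouse, 1581 in the median and 2300 in the highest (mean 1589 ± 343, SD, n = 11), in arterial cells at 216, 307 and 495 (mean 326 ± 84.2), and in capillary cells at 85.8, 117 and 224 (mean 121 ± 38.3). The ranges of venous, arterial and capillary cells overlapped only between the last pair, and within mice the order venous, arterial, capillary held in 11 of 11 mice at both steps. The venous level exceeded the arterial by 2.29 ± 0.15 on the log2 scale, and the arterial exceeded the capillary by 1.43 ± 0.25 (SD over mice; exact permutation test, adjusted p = 0.0033 for each). Cells between capillary and venous identity stood in the middle at 608 ± 119 CPM, 2.35 log2 units above capillary cells and 1.38 below venous cells, each in 11 of 11 mice. Venous cells were a median of 5.93% of the cells of the 5 non-fenestrated endothelial subtypes in a mouse and 14.1% of their UMIs, but held 40.9% of their Vwf UMIs. Arterial cells held a median of 10.0% of the Vwf UMIs, beside 14.1% of all UMIs.

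Fenestrated endothelium, the leaky kind of choroid plexus and other barrier-free sites, held little Vwf: 0 CPM in the lowest mouse, 13.9 in the median and 65.3 in the highest. Pericytes (mean 26.5 ± 21.2 CPM), fenestrated cells (19.1 ± 19.7) and smooth muscle cells (7.54 ± 6.45) did not differ as neighbours (adjusted p = 0.33 and 0.22, exact permutation test), nor did smooth muscle cells differ from microglia (6.35 ± 2.14; adjusted p = 0.83). The pericyte value was 21.9% of the capillary one, beside 19.8% for the endothelial markers.

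The cofactors had patterns of their own. F5 was a gene of the venous side of the capillary bed: cells between capillary and venous identity were at 39.8 CPM in the lowest mouse, 57.8 in the median and 84.9 in the highest (mean 60.1 ± 13), above capillary cells (14.5 ± 2.96) and above venous cells (23.1 ± 16.2) in 11 of 11 mice. The steps were 1.98 ± 0.27 and 1.60 ± 0.76 on the log2 scale (SD over mice). These cells held a median of 72.3% of the endothelial F5 UMIs of a mouse and 30.8% of all UMIs. Arterial cells had 22 F5 UMIs in all 11 mice together (mean 0.764 CPM), close to the 0.552 CPM of microglia (adjusted p = 0.64, exact permutation test). Pericytes were at 4.61 ± 7.62 CPM with 6 of 11 mice at 0, or 31.9% of the capillary level beside 19.8% for the endothelial markers. Venous F5 spread from 5.76 to 55.6 CPM, and the venous and capillary means did not differ (adjusted p = 0.27).

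Selp, the neighbour of F5, did not share its place: it was at 0.591 ± 0.766 CPM in the cells between capillary and venous identity and at 46.6 ± 81.5 CPM in venous cells, with 1 mouse at 287 CPM. Outside the vessel wall the choroid plexus epithelium had far more F5, at 109 to 668 CPM in the 5 mice with at least 20 such cells (mean 368 ± 256). The lowest values were those of CADASIL mouse 4 (109 CPM) and control mouse 1 (152 CPM). Their choroid plexus cells also held Vwf at 316 and 461 CPM, against 2.74 to 13.5 CPM in the other mice, so the mean mixes unlike groups. Choroid plexus epithelium is the secretory lining that makes cerebrospinal fluid.

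F8 was low in each of the 7 ordered types. Venous cells were highest at 4.50 CPM in the lowest mouse, 7.86 in the median and 15.8 in the highest (mean 8.11 ± 3.36), above arterial cells (4.68 ± 2.41) in 10 of 11 mice by 0.69 ± 0.79 on the log2 scale (exact permutation test, adjusted p = 0.048). Below them, fenestrated cells, microglia, capillary cells, smooth muscle cells and pericytes lay between 3.12 and 1.48 CPM with no neighbours that differed (adjusted p = 0.25 to 0.96). Capillary F8 (2.39 ± 0.906 CPM) was thus at the level of microglia (2.52 ± 0.904 CPM), where the source of the F8 RNA was not tested.

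F3, the trigger of clotting, was nearly unread in endothelium, smooth muscle cells and pericytes. The 31244 non-fenestrated endothelial cells of the 11 mice, called all endothelial cells here, together held 25 F3 UMIs, smooth muscle cells 2 and pericytes 1, and the vascular means were 0.0217 to 0.192 CPM. Fibroblasts, the connective cells of meninges and adventitia, were at 332 to 665 CPM (mean 472 ± 129, 5 mice with at least 20 such cells). Microglia had 2.58 ± 0.817 CPM, more than any vascular type, and exceeded pericytes in 11 of 11 mice (adjusted p = 0.0033, exact permutation test). Choroid plexus epithelium was at 11.5 ± 9.01 CPM (n = 5), again lowest in CADASIL mouse 4 (1.85 CPM) and control mouse 1 (3.37 CPM).

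The anticoagulant receptors were split between vessel segments. Thbd was present in every endothelial type and was the only one of the 9 genes for which all 6 steps of the order passed: fenestrated 255 ± 31.6 CPM, venous 194 ± 30.2, capillary 144 ± 15.7, arterial 108 ± 9.39, pericytes 58.1 ± 29.2, smooth muscle 14.1 ± 7.19 and microglia 1.24 ± 0.736. The steps had an adjusted p of 0.0033 to 0.0056 (exact permutation test), with 10 or 11 of 11 mice in its direction. The 3 steps within the endothelium were 0.40 ± 0.16, 0.42 ± 0.21 and 0.41 ± 0.14 on the log2 scale. The lowest, median and highest mouse were at 222, 242 and 303 CPM in fenestrated cells and at 97.6, 105 and 127 CPM in arterial cells, with no overlap. Pericytes had 40.3% of the capillary Thbd level beside 19.8% of the capillary endothelial markers, and their 11 values ran from 25.8 to 106 CPM.

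Procr, which hands protein C to thrombomodulin, ran the other way along the arterial side. It was at 18.7 CPM in the lowest mouse, 27.5 in the median and 38.4 in the highest in arterial cells (mean 28.2 ± 6.83), at 17.9 ± 3.52 in cells between arterial and capillary identity and at 10.0 ± 2.11 in capillary cells. Arterial cells were above capillary cells in 11 of 11 mice by 1.40 ± 0.21 on the log2 scale. They were also above venous cells (19.6 ± 5.30 CPM) in 11 of 11 mice, by 0.52 ± 0.51 (exact permutation test, adjusted p = 0.0033). Smooth muscle, capillary, fenestrated and pericyte means, at 8.64 to 10.1 CPM, did not differ as neighbours (adjusted p = 0.52 to 0.77).

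Tfpi was the 1 gene of the 9 that was highest in pericytes, the mural cells of capillaries. Pericytes were at 108 CPM in the lowest mouse, 130 in the median and 136 in the highest (mean 125 ± 10.1). No mouse of any other ordered type reached the lowest of them. The level was 465% of the capillary one, beside 19.8% for the endothelial markers. Fenestrated cells followed at 63.2 ± 13.6 CPM, 1.01 ± 0.38 lower on the log2 scale (lower in 11 of 11 mice, exact permutation test, adjusted p = 0.0033), and venous cells at 33.8 ± 4.67. Smooth muscle (27.8 ± 3.83), capillary (27.0 ± 3.43) and microglial means (24.4 ± 1.78) did not differ as neighbours (adjusted p = 0.79 and 0.13). Arterial cells were lowest at 13.1 ± 1.96 CPM, below microglia in 11 of 11 mice. Among arterial, capillary and venous cells, the arterial ones were thus lowest for Tfpi and highest for Procr. Fibroblasts, which were not in the order, had Tfpi at 65.4 to 121 CPM in the mice with at least 20 such cells. Their highest value, in CADASIL mouse 5, was above the lowest pericyte value.

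Plat, the fibrin-dissolving activator, was found throughout the barrier endothelium and in pericytes. Capillary cells (344 ± 46.2 CPM), pericytes (302 ± 95.4), venous cells (295 ± 67.3) and arterial cells (281 ± 51.0) did not differ as neighbours (adjusted p = 0.11, 1 and 0.77, exact permutation test). The lowest, median and highest mouse were at 266, 365 and 406 CPM in capillary cells and at 142, 262 and 479 CPM in pericytes, so that the ranges overlapped throughout. Fenestrated cells were the exception in the endothelium at 59.2 ± 18.3 CPM, lower than capillary cells by 2.56 ± 0.40 on the log2 scale in 11 of 11 mice. Smooth muscle cells were at 91.4 ± 21.4 CPM, or 26.6% of the capillary level beside 1.68% for the endothelial markers, and microglia at 1.85 ± 1.12 CPM. The pericyte level, at 87.7% of the capillary one, likewise stood above the 19.8% of the endothelial markers. Fibroblasts were at 386 ± 73.4 CPM (n = 5).

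Plaur was highest in venous cells (lowest mouse 33.3 CPM, median 65.4, highest 136, mean 80.2 ± 36.3), above capillary cells (44.8 ± 17.4) in 11 of 11 mice by 0.79 ± 0.27 on the log2 scale (exact permutation test, adjusted p = 0.0033). Capillary cells, microglia (34.7 ± 7.05), arterial cells (32.5 ± 21.0) and fenestrated cells (32.3 ± 11.8) did not differ as neighbours (adjusted p = 0.057, 0.27 and 0.83). Capillary and arterial cells were not neighbours in this order and were not tested against each other. Capillary Plaur was above arterial in every mouse but CADASIL mouse 1 (75.3 against 77.5 CPM). Pericytes (7.79 ± 7.79 CPM) and smooth muscle cells (3.81 ± 1.95 CPM) had little, at 17.4% and 8.50% of the capillary level, beside 19.8% and 1.68% for the endothelial markers. Blood-borne cells in the preparation had the most Plaur: neutrophils or monocytes 347 ± 117 CPM (n = 4 mice) and B cells 322 ± 145 CPM (n = 10).

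These orders depended in part on how cells were gated. With doublets kept, venous Plaur fell to 25.3 CPM and capillary cells were highest for Plaur, and pericytes were highest for F5. Pericytes were highest for Plat at 1000 genes per barcode. With the set-apart subclusters kept, fenestrated cells were highest for F8, and their mean went from 3.12 to 24.0 CPM through a subcluster mostly of control mouse 5, which was at 392 CPM. When subtypes were gated cell by cell, only 1 mouse kept 20 venous cells, so venous cells left the order, and pericytes were highest for Plat. Under the same gating Vwf went from 326 to 211 CPM in arterial cells and from 121 to 77.6 CPM in capillary cells, and capillary F5 from 14.5 to 8.06 CPM. Vwf in pericytes rose to 156 CPM with doublets kept and to 86.9 CPM with at least 1000 genes per barcode. Venous cells had a median of 14468 UMIs per cell, against 4220 in capillary cells.

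**Figure D2:**
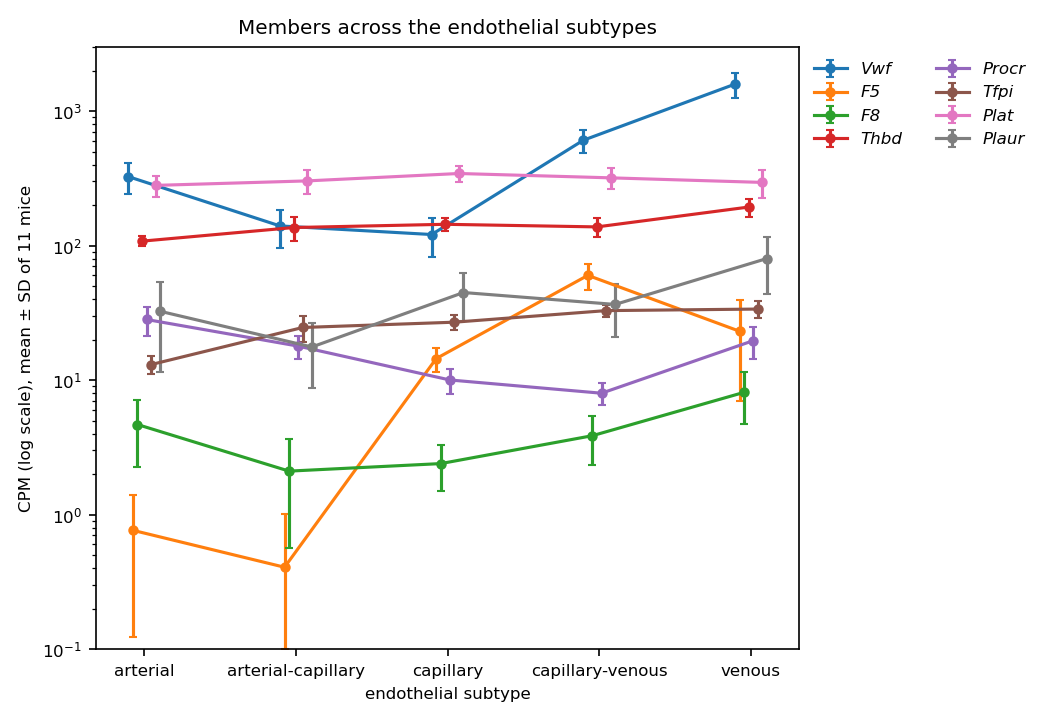
CPM on a logarithmic axis for 8 of the genes (F3 left out) in 5 endothelial subtypes ordered from arterial to venous, as mean ± SD of 11 mice; the lower bar of F5 in arterial-capillary cells runs off the axis. Vwf had its minimum in capillary cells (121 CPM) and its maximum in venous cells (1589 CPM), F5 peaked in capillary-venous cells (60.1 CPM), and Plat stayed between 281 and 344 CPM.

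For each gene, the 3 genes whose log2(CPM + 1) values ran most alike over the 77 sums of mouse and cell type were found among 11748 genes, as a description in which all sums of a mouse share a library. Vwf ran most like Tmem252 (Pearson r = 0.93), Fryl (0.91) and Foxp1 (0.91), and F5 most like Slc38a5 (0.85), Sox9 (0.84) and Tmsb10 (0.82). Tmem252 and Slc38a5 were on the venous marker list, and so was Ephb4, the third gene for Thbd (0.97) after Hdac7 (0.98) and Slfn5 (0.97). That list was used to name the venous cells, so a likeness to its genes comes in part from the naming. Plat went with Pard3 (0.97), Il17rd (0.97) and Fam13c (0.97), Tfpi with Pitpnc1 (0.92), Stard8 (0.86) and Ankrd50 (0.85), and Plaur with Hhex (0.84), Nfkbia (0.84) and Piezo1 (0.83). Values were lower for Procr (Asb4 0.81, 1810037I17Rik 0.81, Btbd7 0.80) and lowest for F8 (Prr7 0.71, Ggct 0.68, Psen2 0.68). For F3 the genes were Bach2os (0.93), Tnfrsf17 (0.92) and Gm47754 (0.92), at a level where F3 had 177 UMIs in microglia, 2 in smooth muscle cells and 1 in pericytes.

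The study's own contrast, R182C-TgN3 against WT-TgN3, was tested for all genes in 7 cell groups by the quasi-likelihood test of edgeR, with p-values adjusted by Benjamini-Hochberg. No member passed 0.05 in any group. Of all genes, 0% were called in the 5 endothelial groups, 0.0113% in smooth muscle cells and 0.0203% in pericytes; in each mural type the 1 called gene was human NOTCH3, higher in CADASIL mice by 2.47 ± 0.27 (SE, adjusted p = 2.5e-04) and 1.61 ± 0.22 (adjusted p = 0.0037) on the log2 scale. At an unadjusted p under 0.05 there were 156 of 12674 genes in all endothelial cells, 239 of 8868 in smooth muscle cells and 197 of 4917 in pericytes. In arterial, capillary, venous and fenestrated cells there were 170 of 10144, 282 of 11206, 247 of 9876 and 189 of 8570. DESeq2 also called 0 genes in the 5 endothelial groups. F3 was too low to be tested anywhere. F5 was tested in all endothelial, capillary and venous cells, and 4 members could be tested in smooth muscle cells (Thbd, Procr, Tfpi, Plat) and 3 in pericytes (Thbd, Tfpi, Plat).

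**Figure D3:**
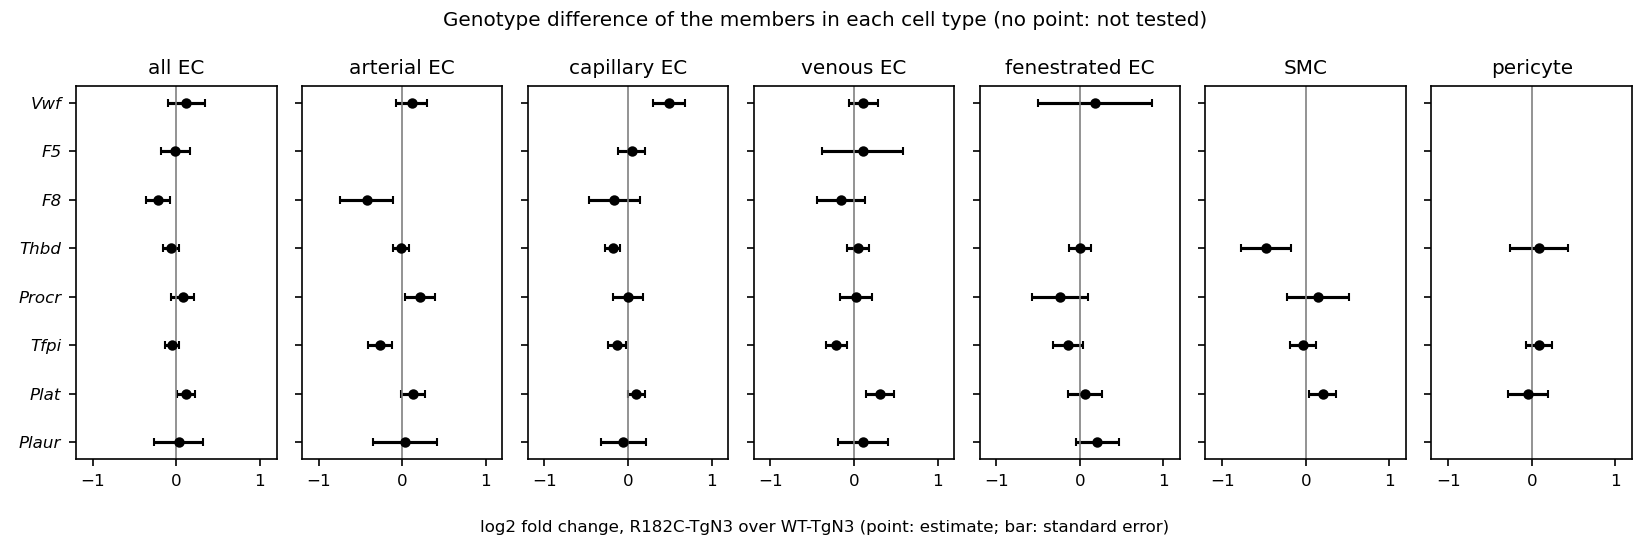
Log2 fold change of R182C-TgN3 over WT-TgN3 for 8 genes in 7 cell groups (6 against 5 mice), with points for estimates and bars for standard errors; genes too low to test have no point. None passed the adjusted threshold, and the widest bars are those of Vwf in fenestrated cells (SE 0.68) and F5 in venous cells (SE 0.49).

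Within the endothelium as a whole the differences were small against their errors: Vwf 0.12 ± 0.22, F5 -0.01 ± 0.17, F8 -0.21 ± 0.14, Thbd -0.06 ± 0.10, Procr 0.08 ± 0.14, Tfpi -0.05 ± 0.09, Plat 0.12 ± 0.11 and Plaur 0.03 ± 0.29 on the log2 scale (± SE). The members had a median of 0.01 there, beside 0.0017 for all genes tested. Over all genes tested in capillary cells, 282 of 11206 had an unadjusted p under 0.05. Of the 44 tests of a member in a cell group, 1 had an unadjusted p under 0.05, a share like that of all genes.

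That was Vwf in capillary cells. CADASIL mice were at 99.0 CPM in the lowest mouse, 122 in the median and 224 in the highest (mean 137 ± 45.7, n = 6), and the 5 control mice at 118, 91.6, 118, 85.8 and 96.4 CPM (mean 102 ± 15.1). The groups overlapped, and the highest value belonged to CADASIL mouse 3, alone in batch 2. The log2 fold change was 0.49 ± 0.19 (SE; edgeR, unadjusted p = 0.023, adjusted p = 1.00). Without that mouse it was 0.26 ± 0.12. With batch as a covariate it was 0.25 ± 0.09, in a fit that also left out that mouse, alone in its batch. The same mouse had the highest Vwf in arterial (495 CPM) and venous cells (2300 CPM) too.

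Next lowest were Thbd in capillary cells, at 133.5 ± 12.5 CPM in CADASIL and 157 ± 7.09 CPM in control mice (log2 fold change -0.18 ± 0.09, unadjusted p = 0.058, edgeR), Plat in venous cells, at 322 ± 62.2 and 264 ± 65.0 CPM (0.32 ± 0.17, unadjusted p = 0.073), and Tfpi in arterial cells, at 11.8 ± 1.54 and 14.5 ± 1.34 CPM (-0.27 ± 0.14, unadjusted p = 0.081). For each of these, values of the genotypes overlapped, and the adjusted p was 1.00. For capillary Thbd the overlap came from CADASIL mouse 3 alone, at 154.7 CPM: the other 5 CADASIL mice were at 120.1 to 138.5 CPM and the controls at 150.3 to 166.2 CPM. Without that mouse the log2 fold change was -0.25 ± 0.08 (edgeR, unadjusted p = 0.0081). With batch as a covariate, in a fit that also left out that mouse, it was -0.26 ± 0.08 (edgeR, unadjusted p = 0.0050). The mouse left out was the one that made the overlap, and the share of all genes that separate in this way was not counted. The log2 fold change was -0.13 at 1000 genes per barcode and at doubled resolution, and -0.12 at 20% mitochondrial UMIs. It was -0.14 with doublets kept and without CADASIL mouse 2 (edgeR, unadjusted p = 0.12 to 0.16 for these 5). With subtypes gated cell by cell it was -0.05 ± 0.13 (edgeR, unadjusted p = 0.71), and the adjusted p of edgeR was 1.00 each time. In pericytes Tfpi was at 129 ± 7.66 CPM in CADASIL and 122 ± 12.2 CPM in control mice, and in smooth muscle cells at 27.7 ± 5.03 and 28.0 ± 2.23 CPM. Plat in smooth muscle cells was at 94.6 ± 24.7 and 87.6 ± 18.6 CPM.

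Whether the genotype difference depended on age was tested with an interaction term, which called 0% of the genes in each of the 7 groups and no member. Of the members, Vwf in all endothelial and arterial cells and F8 in capillary cells were under 0.05 before adjustment (edgeR, unadjusted p = 0.0499, 0.042 and 0.013). Their effects at 9 months exceeded those at 6 months by 0.82, 0.73 and -1.52 on the log2 scale (edgeR, adjusted p = 1.00 for each). All endothelial cells include the arterial cells, so the Vwf values are not separate. The share of all genes under 0.05 before adjustment is not given for the interaction, so these values cannot be set against it. The control mice of 9 months were all of batch 1, and the CADASIL mice of 9 months of batches 1 and 2, so age and batch cannot be told apart in these values.

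Batch 1 did move with Plaur. In all endothelial cells the 4 mice of batch 1 were at 76.3 and 58.6 CPM (CADASIL) and 50.2 and 59.6 CPM (control), and the other 7 mice at 22.3 to 38.0 CPM. The groups did not overlap, and the same held in arterial (31.5 to 77.5 against 14.1 to 23.3 CPM), capillary (60.1 to 75.3 against 25.8 to 40.9 CPM) and venous cells (77.6 to 136 against 33.3 to 70.4 CPM). They overlapped in fenestrated cells (18.9 to 49.6 against 9.95 to 47.7 CPM), and in smooth muscle cells and pericytes. Over all genes of at least 10 CPM, 3.90% were higher in batch 1 without overlap in all endothelial cells, 2.46% in arterial, 3.78% in capillary and 1.12% in venous cells. This is a description: the split was noticed in the values. CADASIL mouse 3, also of 9 months but of batch 2, was the lowest of all 11 mice in all endothelial (22.3 CPM), capillary (25.8 CPM) and venous cells (33.3 CPM).

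**Figure D4:**
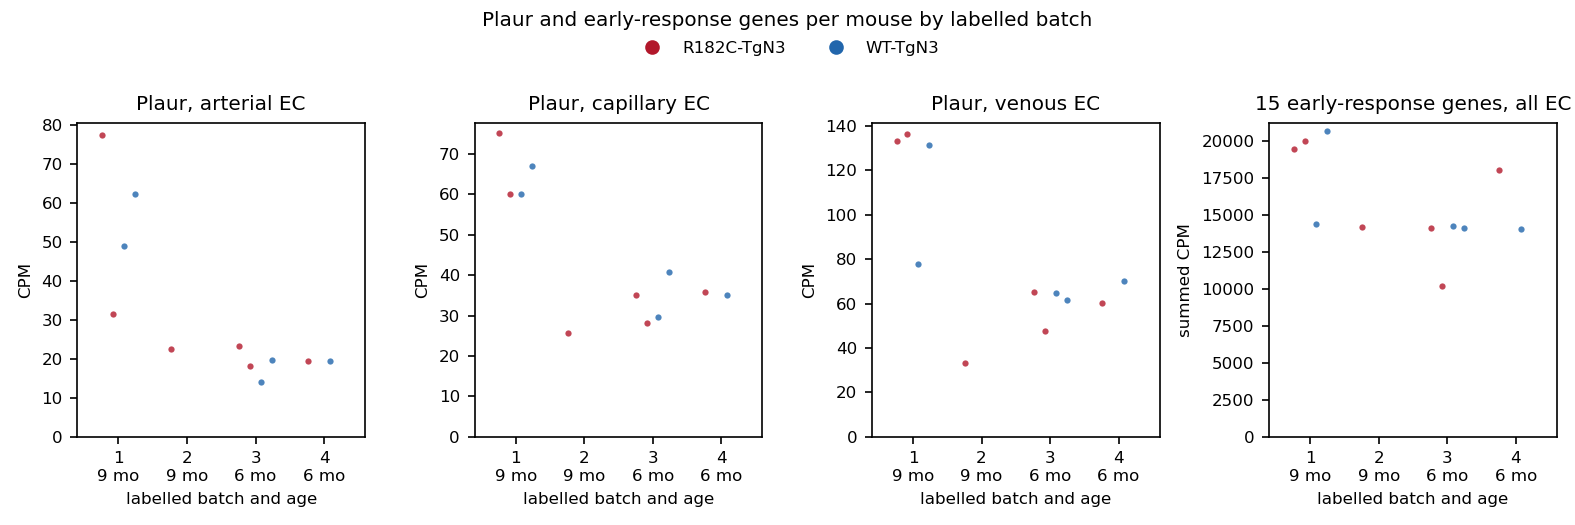
Plaur CPM per mouse in arterial, capillary and venous endothelial cells, and the summed CPM of 15 early-response genes in all endothelial cells, by labelled batch and age (red R182C-TgN3, blue WT-TgN3). All 4 mice of batch 1 lie above the other 7 for Plaur in each panel, while the early-response sums of the batches overlap.

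Early-response genes, which cells switch on within minutes of a stimulus, were followed beside Plaur through a list of 15 genes. In capillary cells Fos was at 2468 to 3214 CPM in batch 1 and 1218 to 2281 CPM in the other mice, and Egr1 at 1470 to 2049 and 835 to 1272 CPM. Dusp1, Zfp36 and Btg2 were also higher in batch 1 without overlap there, and the other 10 of the 15 genes overlapped. The list's sum in all endothelial cells was 14376 to 20727 CPM in batch 1 and 10182 to 18072 CPM in the other mice. Its part in the Plaur values was not tested. Among the 9 genes, Vwf also stood apart in all endothelial cells, lower in batch 1 (258 to 411 CPM) than in the other mice (414 to 719 CPM), where 0.908% of genes were lower without overlap; within arterial, capillary and venous cells the Vwf values of batch 1 overlapped with the others.

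Around the 9 genes, 45 other genes of coagulation, fibrinolysis and platelet control were read in the same sums. In vascular cells 21 of the 45 reached 10 CPM in at least 1 type, and 19 stayed under 1 CPM in every type. Entpd1, which breaks down the platelet activator ADP, was at 494 CPM in arterial cells and 296 in smooth muscle cells. It was at 273 CPM in venous, 265 in fenestrated and 154 in capillary cells, and at 51.1 CPM in pericytes. The annexin pair that gathers plasminogen and its activator, Anxa2 and S100a10, was highest in fenestrated (Anxa2, 327 CPM) and arterial cells (S100a10, 205 CPM). Pros1, the protein S cofactor of activated protein C, was even at 101 to 132 CPM in all endothelial types and pericytes and at 29.4 CPM in smooth muscle cells. Lman1, a cargo receptor for factors V and VIII, was at 44.5 CPM in smooth muscle cells and 80.6 to 121 CPM elsewhere. Lrp1, a receptor that clears protease complexes, was a mural gene (268 CPM in pericytes, 97.0 in smooth muscle cells, under 5 CPM in the endothelium).

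By genotype none of the 45 was called in either direction in any cell group, of 25 tested in all endothelial cells, 16 in smooth muscle cells and 10 in pericytes. Their median log2 fold changes were 0.03, 0.02 and -0.05 in these groups, beside 0.0017, -0.0044 and 0.0019 over all genes tested.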

How the data were processed

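Cerebrovascular cells, isolated with CD31 from the brain, were profiled with the 10x Genomics 3' kit, and the authors processed the reads with Cell Ranger 7.0.0 on mm10 with human NOTCH3 added, per the submitters' processing notes and the study's methods. The deposited values are raw UMI counts per gene and barcode for 66658 barcodes in 11 libraries of 17550806 to 64215050 UMIs.

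Barcodes under 500 genes or over 10% mitochondrial UMIs were left out, and simulated-doublet scores removed 5.32% of the rest. Cells were clustered (Leiden, 2000 variable genes without the 9 genes and the 45 others, 30 components, resolution 1). Clusters were named from fixed markers. Endothelial subclusters with over 70% of cells from 1 mouse, low UMIs or leading genes of another class were set apart, by limits chosen after the clusters were seen. Counts were summed per mouse and type (at least 20 cells, n = 11 mice) and tested with edgeR 4.0.16 (quasi-likelihood, R 4.3.3), with DESeq2 1.42.0 as an alternative. Counts were also simulated with the same spread between mice for every gene, a set value not taken from the data, and no batch differences. Of the changed genes that passed the filter on low counts, 4-fold changes were recovered in 100% in all endothelial, smooth muscle and pericyte sums. For 2-fold changes the shares were 89.0%, 67.1% and 61.7%, and 9, 3 and 1 unchanged genes were called. Changed genes that the filter removed were not counted as missed, so the shares do not hold for genes of low counts. Nor do the shares hold for members that varied more between mice than simulated. Plaur, at 41.7 ± 21.3 CPM in all endothelial cells of CADASIL mice, is an example.

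The genes named are the 9 members, for each the 3 genes most like it, and of the 45 others those called by genotype and the 6 with the highest mean over vascular types. Selp and the split by batch 1 were added after their values were seen. The members and lists were chosen with earlier results of these data known.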

Additional observations from a re-analysis of the deposited data

Results flagged for a closer look

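Of 88 groups of 5 or 6 mice checked for a value far from the others (a gap to the nearest mouse that is large against the group's range, which chance gives in about 1 of 20 groups), 10 held one. CADASIL mouse 3, alone in batch 2, gave 3 of them: Vwf at 495 CPM in arterial cells (the next mouse at 323), Vwf at 224 CPM in capillary cells (next 145) and F5 at 55.6 CPM in venous cells (next 19.8). Batch 1 mice gave Plaur at 77.5 CPM in arterial cells (CADASIL mouse 1), Plaur at 131 CPM in venous cells (control mouse 5) and Thbd at 236 CPM in venous cells (control mouse 4). Control mouse 3 gave Vwf at 65.3 CPM in fenestrated cells and Thbd at 32.9 CPM in smooth muscle cells. F8 was at 11.6 CPM in arterial cells of control mouse 1 and at 15.8 CPM in venous cells of CADASIL mouse 5.

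In cells kept out of the comparisons, a fenestrated subcluster of 244 cells came mostly from control mouse 5, and there F8 was at 392 CPM (628 UMIs), against 1.48 to 8.11 CPM for the means of the 6 vascular types. No other mouse had 20 cells of this subcluster, so the level has no replicate. Control mouse 5 also gave 97.3% of an unnamed cluster of 150 cells, in which pituitary markers scored highest and neuron markers close behind. The tissue of origin of the fenestrated subcluster was not tested.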

How the results depend on the processing

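No member was called by genotype or by the interaction with age under any alternative. The counts of genes called by genotype were unchanged apart from pericytes, with 0 at 1000 genes per barcode, 0 with batch as covariate and 5 with no filter on low counts, against 1. Leaving out each mouse gave 0 in all endothelial, arterial, capillary and venous cells, 0 to 2 in fenestrated cells (2 without CADASIL mouse 5) and 1 in smooth muscle cells and pericytes. The interaction with age, with 0 calls summed over the 7 groups, had 4 at 1000 genes per barcode, 2 at 20% mitochondrial UMIs, 1 with the set-apart subclusters kept, and 0 to 16 leaving out each mouse (16 without control mouse 5, 9 without CADASIL mouse 4, 5 without control mouse 4, 2 without control mouse 2). The count of differing neighbours, 24 of 54, was 23 to 26 leaving out each mouse. The cause was not tested. Of the members' log2 fold changes, 30 of 1078 alternative values moved by more than the standard error. The same-numbered mice of an age showed no strong shared deviation from their genotype means (r from -0.41 to 0.15). Other pairs of mice were not compared, so these values cannot decide whether the numbers pair mice. With the replicate block, 0 genes were called in the endothelial groups and 1 each in smooth muscle cells and pericytes. Fits with batch as covariate or with the replicate block left out CADASIL mouse 3. It had no control mouse of its batch, or of its age and label number. The alternative with shared barcodes left out, and the one with set-apart subclusters kept, were chosen after seeing the data. Few cells limit pericytes, with 24 to 167 per mouse.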
